A study of Mus musculus with 9 samples.

Results

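The cytosolic ribosomal protein genes were described in mouse hippocampal neural stem cells differentiated in the presence of NAT, P7C3-A20 or the DMSO vehicle. Members were chosen by symbol alone: names of the form Rpl or Rps plus a number with an optional a, x or y, together with Rplp0, Rplp1, Rplp2 and Rpsa. The rule took 76 of the 23420 rows of the expression table, 46 for proteins of the large subunit and 30 for proteins of the small subunit. No measured value entered this rule, though earlier results of these data were known when it was chosen. The rule left out Rps3a1, Gnb2l1 and Fau, ribosomal protein genes with other kinds of symbol, which are described apart.

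The libraries formed 3 groups of 3. In the NAT group the cells received 3 µM NAT, a small molecule known here only by that name. In the P7C3-A20 group they received 3 µM P7C3-A20, an aminopropyl carbazole studied for its protection of young neurons. The control group received DMSO, the vehicle. All cells came from the hippocampus of wild-type C57BL/6J mice aged 2 days, were grown in culture, and were treated in a drop-out medium lacking bFGF and EGF, which lets neural stem cells differentiate; the length of treatment is not given in the labels. Libraries of a group are called biological replicates in the labels, without a word on whether cultures or mice were separate, and every p-value is read against that library spread only. Values are TPM, reads divided by gene length and scaled so that each library sums to the same total. They describe shares of the RNA pool. In such bulk samples fewer cells of a type and less RNA per cell cannot be told apart.

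Each ribosome joins a small subunit, which reads the mRNA, to a large subunit, which forms the peptide bond. Their proteins are needed in matched amounts, and most of their mRNAs begin with a short run of pyrimidines, the terminal oligopyrimidine (TOP) motif, through which the growth-factor-responsive kinase mTOR controls their translation. In the developing brain, ribosome production is high in dividing progenitors and declines as cells mature.

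The libraries held 12994081 to 13803959 reads with NAT, 15885313 to 17217584 with P7C3-A20 and 12028821 to 14109316 with DMSO, recovered from the TPM steps. Summed TPM of 5 neural progenitor markers was 15957 to 16352 with NAT, 15440 to 15969 with P7C3-A20 and 16709 to 17158 with DMSO. Most of this sum was Fabp7, at 11168 to 11746 TPM with NAT, 10636 to 11236 with P7C3-A20 and 11868 to 12411 with DMSO. Vim, Sox2 and Nes overlapped between all groups, and Hes5 was lowest with NAT. For 5 astrocyte markers the sum was 5106 to 5235 with NAT, 4510 to 5059 with P7C3-A20 and 4715 to 4909 with DMSO. For 5 oligodendrocyte lineage markers it was 2926 to 3121 with NAT, 3053 to 3586 with P7C3-A20 and 3088 to 3219 with DMSO. For 5 neuron markers it was 696 to 741 with NAT, 673 to 731 with P7C3-A20 and 711 to 741 with DMSO. The marker sums of microglia, endothelium, fibroblasts with pericytes and blood stayed at or below 2.05 TPM in every library, so the defining markers of these cells were at or near 0. The third P7C3-A20 library stood apart in the member genes and in some markers. Slc1a3 held 2186, 2193 and 1811 TPM with P7C3-A20, Aqp4 216, 222 and 171, and Olig1 2105, 2260 and 2530. Aldh1l1 and S100b did not stand apart there. Member values named below that moved by over 1.5 times without the third P7C3-A20 library are also given without it. Others of them are given as a range with each library left out.

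Promoter stretches of 30 bases are printed for members whose values are described below, since ribosomal protein genes are known for pyrimidine-rich starts and for sites of ETS family factors. Capitals mark the motif, and the sequences come from RefSeq on mouse build GRCm38.p6, read 5′ to 3′ on the gene's strand. The first 3 hold the pyrimidine run CTCTTTC, at chr2:39005113-39005142 on the minus strand, chr7:4792954-4792983 on the plus strand and chr5:107900497-107900526 on the plus strand. The run begins at the RefSeq start in Rpl35 and Rpl28 and upstream of it, at -20, in Rpl5.
Rpl35: cccgccctttcCTCTTTCtctcgaaccagg
Rpl28: ctctcgtgtctCTCTTTCcgtctccggccg
Rpl5: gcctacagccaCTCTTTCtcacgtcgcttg
The next 3 hold the ETS core CCGGAAG or its reverse complement, at chr17:33955804-33955833 and chr17:27635255-27635284 on the minus strand and chr9:120127567-120127596 on the plus strand.
Rps18: agaaggccgaaCCGGAAGttatagctccgg
Rps10: agccgcgcagcCCGGAAGagacgctgcgcc
Rpsa: cgccccagctaCTTCCGGcctggggtctgt
Promoter windows of 300 bases were at hand for 56 of the 76 members and for 27025 genes in all. A gene was counted if any of its windows held the motif at any position, so the shares below are not shares of genes that start with it. CTCTTTC, searched on the gene's strand, was in 13 members (23.2%) and in 4.60% of all genes. CTTTTCC, another pyrimidine run searched the same way, was in 8 members (14.3%) and in 4.56% of all genes. CCGGAAG, searched on both strands, was in 23 members (41.1%) and in 9.93% of all genes. TATAAA, the TATA box letters on the gene's strand, was in 5 members (8.93%) and in 9.77% of all genes. These are matches of letters and do not show binding.

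Ribosomal protein genes were among the abundant mRNAs of these cultures. The median member stood at 719.6 TPM averaged over the 9 libraries, 691 for the large and 829 for the small subunit. In all, 24 members reached 1000 TPM, 29 lay between 500 and 1000, 17 between 200 and 500 and 2 between 10 and 200. The remaining 4 lay under 10 TPM, far below their partners in the same particle.

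Among large-subunit genes the highest mean levels were those of Rplp1 (2228 TPM), which encodes a stalk protein that recruits elongation factors, Rpl41 (1775 TPM), which encodes a very short basic peptide, and Rpl4 (1534 TPM), whose protein lines the exit tunnel. Rplp0 (1418 TPM), the base of the stalk, and Rpl8 (1223 TPM), a protein close to the catalytic centre, followed. Among small-subunit genes Rps9 (1554 TPM), linked to decoding accuracy, led Rps4x (1416 TPM), the X-linked form of this protein, Rps26 (1387 TPM), which lies where the mRNA leaves, Rps12 (1386 TPM) and Rps15 (1283 TPM). In the large subunit the lowest library of Rplp1 lay above the highest of Rpl41, and that of Rpl41 above the highest of Rpl4. Rps4x held 1427, 1421 and 1359 TPM with NAT, 1396, 1399 and 1392 with P7C3-A20, and 1540.1, 1435 and 1379 TPM with DMSO, a range that spans the means of Rps26 and Rps12.

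At the low end, Rpl26 was listed at 0 in all 9 libraries. Rpl30 averaged 3.03 TPM, Rps27 3.34 TPM and Rpl34 5.91 TPM. Rpl30 rests on 9, 11 and 5 reads with NAT, 13, 11 and 15 with P7C3-A20, and 7, 7 and 10 with DMSO. Rps27 rests on 11, 8 and 10 reads with NAT, 9, 12 and 7 with P7C3-A20, and 9, 8 and 13 with DMSO. Rpl34 rests on 11, 19 and 19 reads with NAT, 16, 23 and 28 with P7C3-A20, and 14, 13 and 20 with DMSO. Each of these rows overlapped between all groups, whereas the 72 members at or above 100 TPM had 745 to 13301 reads per library. Ribosomal protein genes have many processed pseudogenes, and 75 of the 76 members shared at least 1 stretch of 50 bases with an annotated pseudogene. The 4 low members shared a median of 55.3% of their 50-base stretches with transcripts of other genes, and the other 72 members 47.6%. How reads with several matches were counted is not given in the sources used here, and the part of such reads in any member's level was not tested.

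Rps15a (121 TPM), Rpl15 (197 TPM), Rpl5 (283 TPM), Rps6 (339 TPM), Rps10 (485 TPM) and Rps7 (507 TPM) completed the 5 lowest of each subunit. In the first DMSO library 1 TPM of Rps15a stood for 23.7 reads, against 1.51 to 9.42 for the other 74 members with a value. The authors' TPM thus divided Rps15a by a larger gene length, and its TPM is not comparable with those of its partners.

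**Figure D1:**
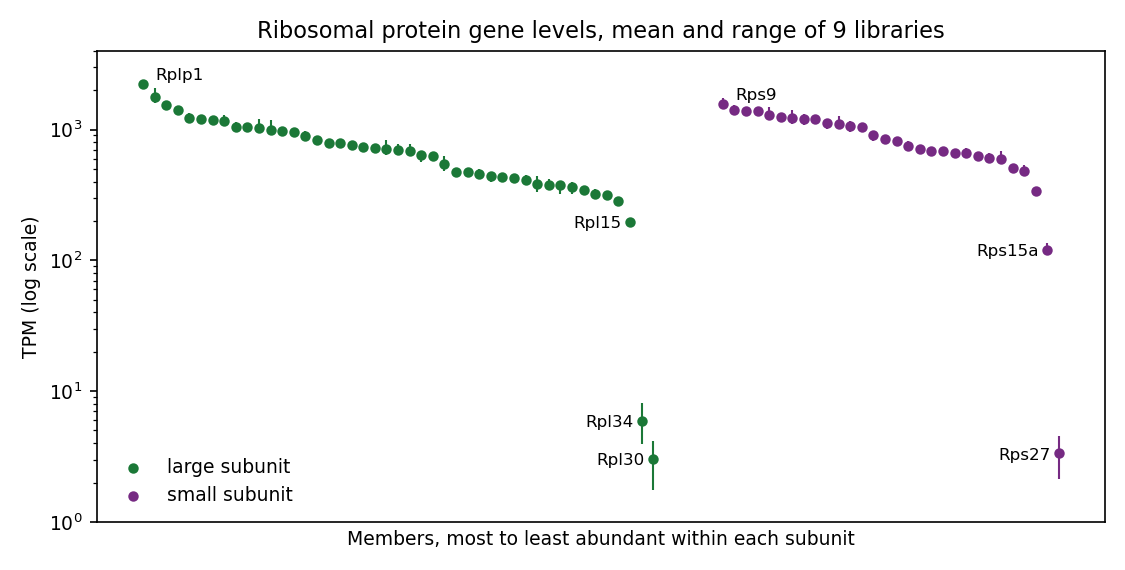
TPM on a log scale (vertical) for each ribosomal protein gene, ordered from most to least abundant within the large and the small subunit. Points are means and lines the range over 9 libraries. Most members lie between 200 and 2228 TPM, Rpl34, Rps27 and Rpl30 lie under 10 TPM, and Rpl26, listed at 0, is not drawn.

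Replicate spread was small. Over the 72 members at or above 100 TPM the median coefficient of variation was 2.70% with NAT, 3.58% with P7C3-A20 and 3.05% with DMSO. The median spread that read counting alone would give was 1.99% with NAT, 1.75% with P7C3-A20 and 1.95% with DMSO. The widest were Rpl29 with NAT (8.90%), Rpl41 with P7C3-A20 (9.85%) and Rpl39 with DMSO (7.61%).

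Summed over all members, the 3 NAT libraries held 57947, 57793 and 55856 TPM. The P7C3-A20 libraries held 58791, 59414 and 63452 TPM, and the DMSO libraries 60984, 61432 and 59781 TPM. Every NAT library lay below every P7C3-A20 and every DMSO library. The third P7C3-A20 library was the highest of the 9, while the other two P7C3-A20 libraries lay below all 3 DMSO libraries. As shares of all TPM the sums were 5.59% to 5.79% with NAT, 5.88% to 6.35% with P7C3-A20 and 5.98% to 6.14% with DMSO.

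Both subunits showed this order. Large-subunit genes summed to 32065 ± 598 TPM with NAT, 33805 ± 1400 TPM with P7C3-A20 and 33927 ± 461 TPM with DMSO (SD, n = 3 each). Small-subunit genes summed to 25134 ± 568 TPM with NAT, 26747 ± 1131 TPM with P7C3-A20 and 26805 ± 395 TPM with DMSO (SD, n = 3 each). The total with NAT was 94.2% of the total with DMSO and 94.5% of that with P7C3-A20. The total with P7C3-A20 was 99.7% of the total with DMSO. Without the third P7C3-A20 library the total with NAT was 96.8% of that with P7C3-A20, and the total with P7C3-A20 was 97.3% of that with DMSO. No test was made of these sums.

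**Figure D2:**
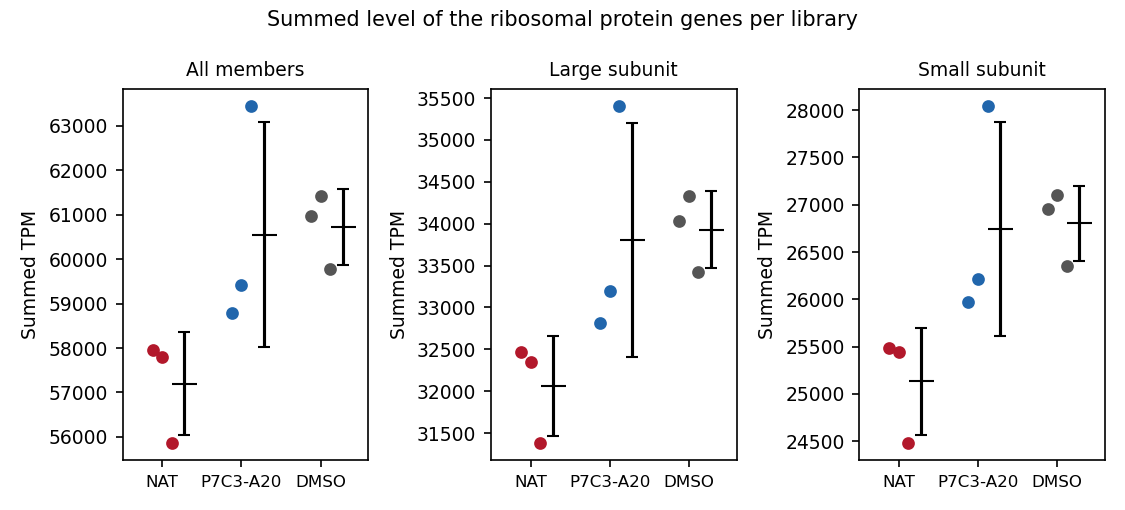
Summed TPM of all members, of large-subunit genes and of small-subunit genes in each of the 9 libraries, by group, with the mean and SD of 3 libraries; the axes do not start at 0. In each panel the 3 NAT libraries lie below all others, and the third P7C3-A20 library lies highest.

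NAT was compared with DMSO to ask what this compound did to the family. Small deficits with NAT ran across the family, and no single gene passed the test. Of the 75 members tested, 74 had a negative log2 fold change on the log2(TPM + 1) scale, all but Rpl34, against 36.5% of the 13839 genes tested. The median member stood at -0.08, or -5.66%, against 0.03 for all genes, and the middle of the distribution ran from -0.10 to -0.06 (quartiles). The median was -0.08 for the 45 large-subunit members and -0.10 for the 30 small-subunit members.

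By limma with Benjamini-Hochberg adjustment over all genes, 0 of 75 members were called at an adjusted p of 0.05, and 0.0289% of all genes were. The smallest adjusted p of a member was 0.117. At an unadjusted limma p under 0.05, 34 members were lower, where 3.00% of all genes were, and 0 were higher, where 8.67% were. That count was 11 without the third NAT library, 20 without the first DMSO library and 16 without the second. Over all genes, both directions counted, 1615 had such a p with all libraries. In the same order, 1111, 1288 and 1236 did without those libraries. Voom, a limma test on the recovered reads, also called 0 members, and 0.195% of all genes. At an unadjusted voom p under 0.05, 52 of 75 members were lower and 0 higher. In either direction 1381 of 13839 genes had such a p, and the share of all genes lower is not given.

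All 3 NAT libraries lay below all 3 DMSO libraries in 37 of 75 members (49.3%), where 4.89% of all genes showed this. They lay above in 0 members, where 14.1% of all genes did. The 37 comprised 20 large-subunit and 17 small-subunit genes. The count lower without overlap was 29 after quantile normalization (8.14% of all genes) and 27 with the GC and length trend removed (8.92%). On the voom scale it was 44 (8.31% of all genes). Members share libraries, so these counts are not independent of each other. Between the same groups, 4 of 5 neural progenitor markers were negative (2 without overlap) and 5 of 5 astrocyte markers positive (3 without overlap). Of the oligodendrocyte lineage markers 4 of 5 were negative (3 without overlap), and of the neuron markers 5 of 5 (1 without overlap). The part of cell composition in the members' values was not tested.

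Rpl35, a large-subunit protein at the mouth of the exit tunnel, had the lowest fold change with NAT. Its libraries held 405, 399 and 416 TPM with NAT, against 469.7, 463 and 451 TPM with DMSO. No NAT library reached the lowest DMSO library. The log2 fold change was -0.18 ± 0.03 (SE; 95% interval -0.25 to -0.12) and the adjusted p by limma 0.117.

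Rps18, a protein of the small subunit's head, held 771, 765 and 749 TPM with NAT, against 877, 871 and 805 TPM with DMSO. Again the groups did not overlap, and the first and second DMSO libraries stood well above the third. Its log2 fold change was -0.16 ± 0.04 (SE), with a limma adjusted p of 0.225. Rps10, a small-subunit protein that is ubiquitinated when ribosomes collide, held 465, 451 and 443 TPM with NAT, against 508, 533 and 473 TPM with DMSO. The NAT libraries were the 3 lowest of the 6, at a log2 fold change of -0.15 ± 0.05 (SE) and a limma adjusted p of 0.295.

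Rpl23a, which forms a docking site for factors that meet the new chain at the tunnel exit, held 779.7, 756 and 725 TPM with NAT, against 850.2, 812 and 838 TPM with DMSO. The groups did not overlap, with 779.7 TPM as the highest NAT and 812 TPM as the lowest DMSO library. The log2 fold change was -0.15 ± 0.04 (SE), with a limma adjusted p of 0.224.

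The stalk genes and Rpsa lay within the same range. Rplp1 held 2153, 2153 and 2103 TPM with NAT, against 2386, 2269 and 2252 TPM with DMSO, without overlap. Rplp0 held 1411, 1358 and 1326 TPM with NAT, against 1483, 1480.4 and 1434 TPM with DMSO, also without overlap. The log2 fold changes were -0.11 ± 0.04 for Rplp1 and -0.10 ± 0.03 for Rplp0 (SE), with limma adjusted p of 0.323 and 0.313.

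Rplp2, the partner of Rplp1 in the stalk, overlapped between the groups at 981, 957 and 979.6 TPM with NAT, against 1008, 1039 and 953 TPM with DMSO. Rpsa, a small-subunit protein also known as the laminin receptor precursor, held 594.5, 583 and 564 TPM with NAT, against 665, 632 and 612 TPM with DMSO. Its groups did not overlap, and its log2 fold change was -0.13 ± 0.04 (SE) at a limma adjusted p of 0.263.

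At the other end were the members with the least negative or positive values. Rpl5, which with Rpl11 restrains the p53 ligase Mdm2 when ribosome assembly is disturbed, held 289, 283 and 278 TPM with NAT, against 289, 289 and 280.2 TPM with DMSO. The ranges overlapped, and the log2 fold change was -0.01 ± 0.03 (SE; 95% interval -0.08 to 0.05). Rps27a, a ubiquitin fusion, held 632, 632 and 612 TPM with NAT, against 643, 650.1 and 605 TPM with DMSO, at -0.02 ± 0.04 (SE).

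Rpl10, a late-joining protein needed for the subunits to meet, held 772, 761 and 743 TPM with NAT, against 803.5, 770.2 and 736.5 TPM with DMSO, at -0.02 ± 0.04 (SE). In these 3 genes the groups overlapped. Rpl34 and Rpl30 were the other two of the highest 5, at 0.02 ± 0.20 and -0.0019 ± 0.19 (SE). With so few reads, changes as large as those of the other members were not detectable for them.

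**Figure D3:**
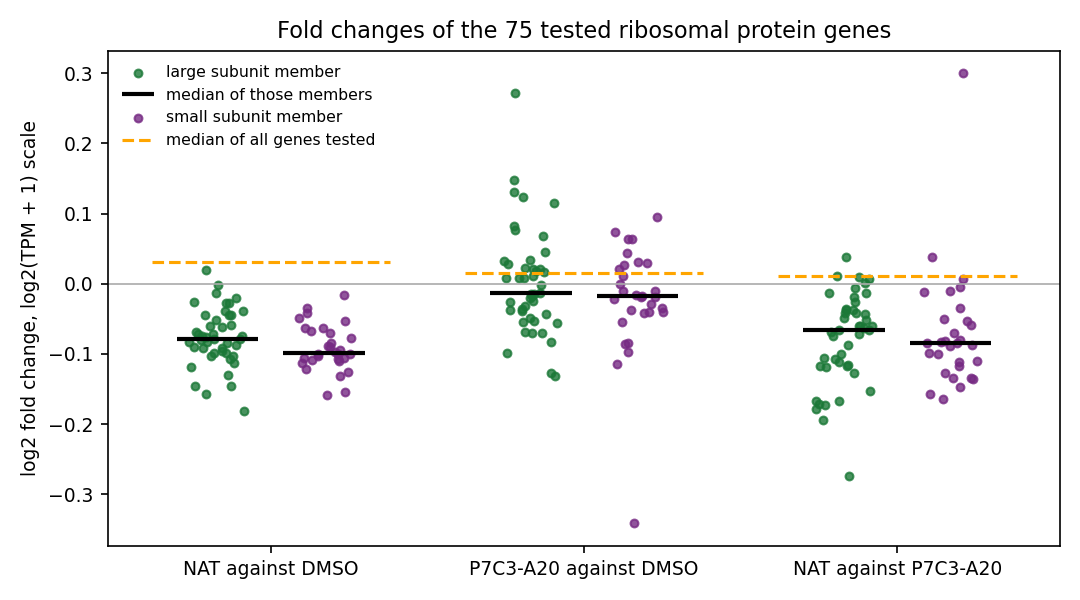
Fitted log2 fold changes on the log2(TPM + 1) scale of the 75 tested ribosomal protein genes in NAT against DMSO, P7C3-A20 against DMSO and NAT against P7C3-A20, by subunit; black bars are medians of the members and dashed lines medians of all genes tested. In NAT against DMSO 74 of 75 lie below 0, and in P7C3-A20 against DMSO 44 do.

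P7C3-A20 was compared with DMSO in the same way. Members lay on both sides of 0 with no common direction. Here 44 members had a negative and 31 a positive log2 fold change, against 44.8% of all genes negative. The median member stood at -0.01 and the median gene at 0.01. The median was -0.01 for the large and -0.02 for the small subunit.

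Limma called 0 of 75 members at an adjusted p of 0.05, and 0.0217% of all genes. The smallest adjusted p of a member was 0.169, and voom also called 0 members, and 1.84% of all genes. At an unadjusted limma p under 0.05, 6 members were lower (5.12% of all genes) and 2 higher (10.7% of all genes). The 6 became 2 without the first or the second P7C3-A20 library or the first DMSO library, 3 without the second DMSO library, and 9 without the third P7C3-A20 or the third DMSO library. Over all genes, both directions counted, 2194 had such a p, with 1394 to 2453 as each library in turn was left out.

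The groups did not overlap for 7 lower members, where 7.49% of all genes were lower without overlap, and for 3 higher members, where 13.1% were higher. Without the third P7C3-A20 library the median was -0.04, 61 members were negative, and 22 were lower and 3 higher without overlap, where 10.8% of all genes were lower and 20.1% higher. Without the first P7C3-A20 library the median was 0.01 (0.0079). The family's position with P7C3-A20 thus moved with single libraries.

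The 7 lower members were Rpl15, Rpl23a, Rpl31, Rpl35, Rpl38, Rps24 and Rpsa. Rpl23a held 778, 746 and 764 TPM with P7C3-A20, against 850.2, 812 and 838 TPM with DMSO. Its log2 fold change was -0.13 ± 0.04 (SE), with a limma adjusted p of 0.169. Rpl31, another protein at the tunnel exit, held 322, 310.2 and 313 TPM with P7C3-A20, against 332, 350.1 and 331 TPM with DMSO, at -0.10 ± 0.04 (SE) and a limma adjusted p of 0.277.

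Lowest of all by fold change was Rps27 at -0.34 ± 0.17 (SE; 95% interval -0.71 to 0.02), which rests on 7 to 12 reads per P7C3-A20 library and 8 to 13 per DMSO library. It was -0.22 without the third P7C3-A20 library and -0.23 without the third DMSO library. Rpl39, a small protein inside the exit tunnel, held 655, 663 and 677 TPM with P7C3-A20, against 776, 746 and 668 TPM with DMSO. The third DMSO library lay among the P7C3-A20 libraries, and its log2 fold change was -0.13 ± 0.05 (SE) at a limma adjusted p of 0.282, or -0.086 without the first DMSO library. Rps15a held 119, 112 and 119 TPM with P7C3-A20, against 136, 127 and 117 TPM with DMSO, at -0.12 ± 0.05 (SE), or -0.063 without the first DMSO library.

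Among the 3 higher members were Rpl10a and Rpl28. Rpl10a, the protein of the stalk beside the exit site for tRNA, held 388, 405 and 421 TPM with P7C3-A20, against 378, 360.1 and 376 TPM with DMSO. All P7C3-A20 libraries lay above, at a log2 fold change of 0.12 ± 0.04 (SE) and a limma adjusted p of 0.193.

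Rpl28, a large-subunit protein, held 979.8, 1060.0 and 1174 TPM with P7C3-A20, against 965, 955 and 972 TPM with DMSO. The first P7C3-A20 library was close to DMSO and the third far above it. The log2 fold change was 0.15 ± 0.05 (SE), with a limma adjusted p of 0.225, and 0.080 without the third P7C3-A20 library. Rplp2 followed at 0.11 ± 0.06 (SE), with 1009, 1043 and 1205 TPM with P7C3-A20, against 1008, 1039 and 953 TPM with DMSO, so that the third library alone stood clear. Without it the Rplp2 value was 0.038. Rpl30 at 0.27 ± 0.19 and Rpl34 at 0.13 ± 0.20 (SE) completed the 5 highest and rest on few reads. They were at 0.17 and -0.042 without the third P7C3-A20 library, and Rpl34 ranged from -0.042 to 0.30 as each library in turn was left out.

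**Figure D4:**
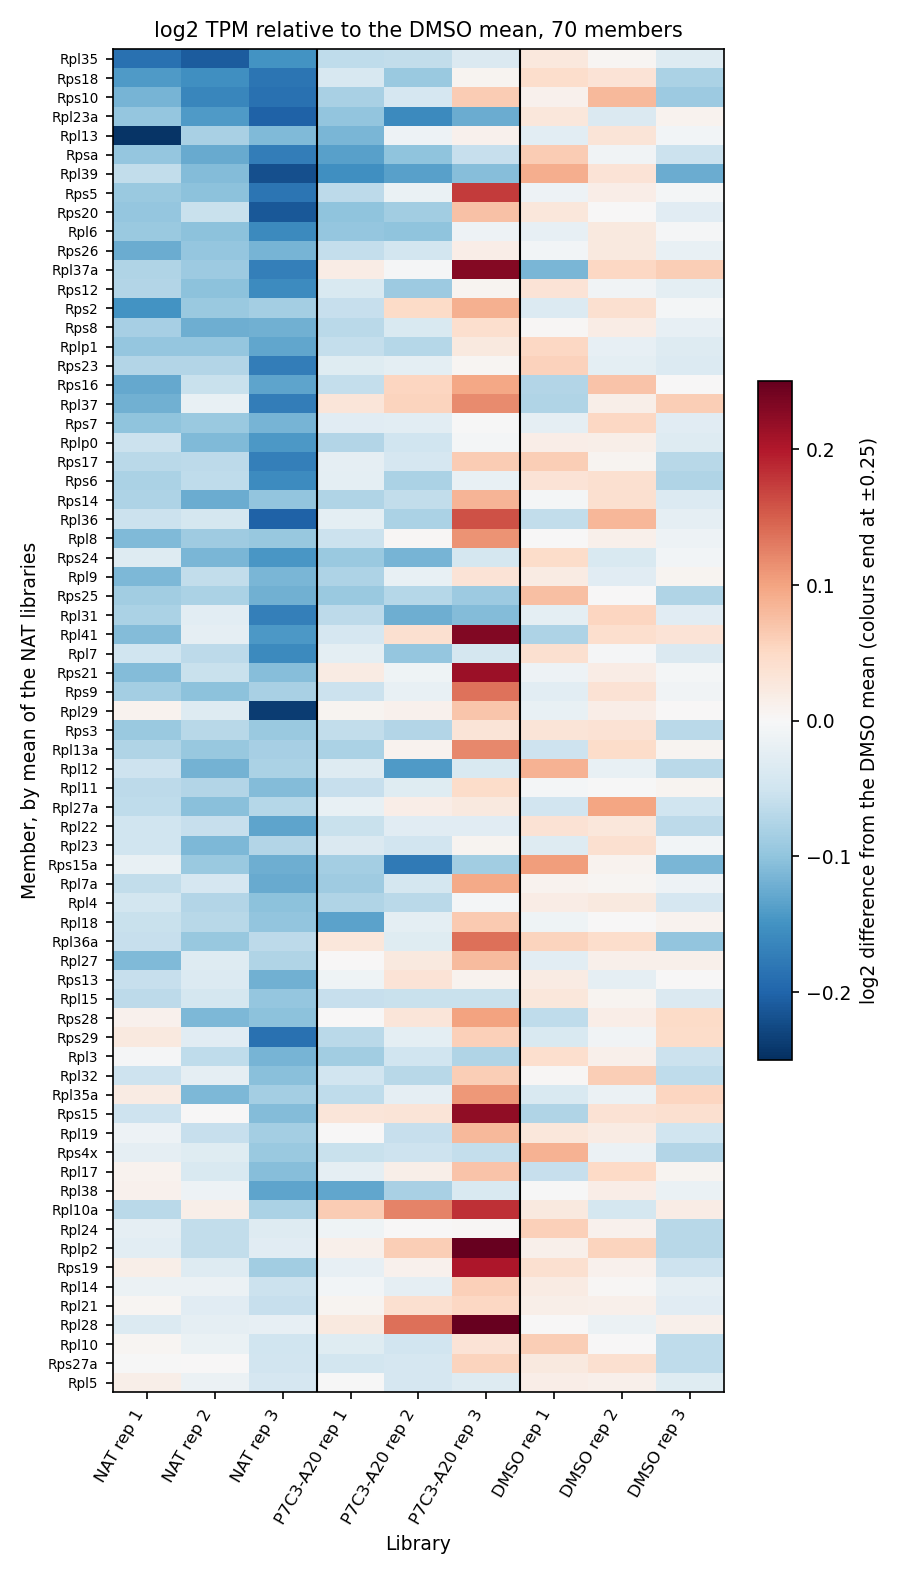
Difference of log2 TPM from the DMSO mean (colour, blue lower, red higher, ending at 0.25 either way) for 70 of the 72 members at or above 100 TPM in rows, ordered by their NAT mean, and the 9 libraries in columns, NAT, then P7C3-A20, then DMSO. Most rows are blue in the 3 NAT libraries, and the third P7C3-A20 library is red in many.

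NAT and P7C3-A20, given at the same dose, formed the only pair of compounds. Levels were lower with NAT for most members, again by small amounts. Between the same groups 5 of 5 oligodendrocyte lineage markers were negative (2 without overlap), 4 of 5 astrocyte markers positive (3 higher without overlap), and 3 of 5 neuron markers negative (3 without overlap). These marker counts include the third P7C3-A20 library, in which Slc1a3 and Aqp4 were low and Olig1 high. The part of these markers' cell types was not tested. The log2 fold change was negative in 67 members and positive in 8, where 46.0% of all genes were negative. The median member stood at -0.08, and all genes at 0.01. The median was -0.07 for the large and -0.08 for the small subunit. Without the third P7C3-A20 library the median was -0.04 and 61 members were negative.

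Limma called 0 of 75 members at an adjusted p of 0.05, and 0.00% of all genes, with 28 members lower at an unadjusted p under 0.05 (5.89% of all genes) and 0 higher (9.92% of all genes). The 28 became 13 without the third NAT library, 16 without the third P7C3-A20 library, and 24 to 32 without any other library. Over all genes, both directions counted, 2188 had such a p, with 1319 to 2545 as each library in turn was left out. NAT libraries lay below all P7C3-A20 libraries in 30 members, where 8.35% of all genes did, and above in 0, where 13.3% did. Voom called 6 members lower, where it called 0.838% of all genes lower, among them Rpl10a, Rpl28, Rpl37, Rpl37a and Rps2. An adjusted p above 0.05 does not show that the compounds act alike on a gene.

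Rpl37a, a zinc-binding protein of the large subunit, held 679, 672 and 635 TPM with NAT, against 725, 713 and 839 TPM with P7C3-A20. The groups did not overlap, and the third P7C3-A20 library was far above the rest. The log2 fold change was -0.19 ± 0.06 (SE; 95% interval -0.34 to -0.05) and the adjusted p by limma 0.220. It was -0.12 ± 0.05 (SE) without the third P7C3-A20 library. Rpl37 held 334, 359 and 322 TPM with NAT, against 371, 377 and 394 TPM with P7C3-A20, at -0.17 ± 0.05 (SE) and a limma adjusted p of 0.190.

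Rpl28 held 941, 949.6 and 950.2 TPM with NAT, against 979.8, 1060.0 and 1174 TPM with P7C3-A20. The NAT libraries were nearly equal, and the P7C3-A20 libraries were spread widely above them. Its log2 fold change was -0.17 ± 0.05 (SE), with a limma adjusted p of 0.206, and -0.11 without the third P7C3-A20 library. Rpl10a held 354, 375 and 351 TPM with NAT, against 388, 405 and 421 TPM with P7C3-A20, at -0.17 ± 0.04 (SE) and a limma adjusted p of 0.172.

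Rpl35 had the smallest limma adjusted p here, 0.168, at -0.13 ± 0.03 (SE), with 405, 399 and 416 TPM with NAT, against 441, 442 and 449.7 TPM with P7C3-A20. Rpl30, on few reads, was lowest at -0.27 ± 0.19 (SE), or -0.054 without the third NAT library, -0.42 without the second and -0.18 without the third P7C3-A20 library.

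On the positive side Rps27 stood at 0.30 ± 0.17 (SE), again on few reads, or 0.18 without the third P7C3-A20 library. Rpl38 was at 0.04, with 486, 479 and 441 TPM with NAT, against 442, 456.5 and 470.5 TPM with P7C3-A20. The Rpl38 value ranged from 0.011 to 0.082 as each library in turn was left out. Rps15a was also at 0.04, with 125, 118 and 116 TPM with NAT, against 119, 112 and 119 TPM with P7C3-A20, and both genes overlapped. Rpl5 was at 0.01 and Rpl3, a protein at the catalytic centre, at 0.0096. For Rpl5 the 95% interval of the difference ran from -0.05 to 0.08, and for Rpl3 from -0.07 to 0.09. Rpl3 held 1009, 967 and 933 TPM with NAT, against 952, 977 and 961 TPM with P7C3-A20, and the ranges overlapped.

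Base composition moved with this comparison. Across the 75 members the Spearman correlation of the fold change with GC content was -0.47 for NAT against P7C3-A20, 0.32 in the comparison of P7C3-A20 with DMSO and -0.06 in that of NAT with DMSO, given as descriptions over genes that share libraries. Without the third P7C3-A20 library it was -0.36 for NAT against P7C3-A20 and 0.14 for P7C3-A20 against DMSO. With the GC and length trend removed, NAT against P7C3-A20 had a median of -0.05 and NAT libraries below all P7C3-A20 libraries in 19 members (8.71% of all genes) and above them in 1 (8.96% of all genes). NAT against DMSO had a median of -0.07 by the same fit, with 72 of 75 members negative. There the NAT libraries lay below all DMSO libraries in 27 members (8.92% of all genes) and above them in 0 (8.12% of all genes). The part of base composition beyond these fits was not tested.

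Both compounds were set against the same 3 DMSO libraries, so their fold changes are not independent and are only placed side by side. Rpl15, Rpl23a, Rpl35 and Rpsa lay below DMSO without overlap with each compound, as did 1.38% of all genes. Rpsa held 579, 593.5 and 611 TPM with P7C3-A20, just under its lowest DMSO library. Rpl28 was the only member with all NAT libraries below and all P7C3-A20 libraries above DMSO, as in 0.166% of all genes. The NAT side of this was slight, with 950.2 TPM as the highest NAT and 954.6 TPM as the lowest DMSO library. Its log2 fold change in NAT against DMSO was -0.03 ± 0.05 (SE), with a limma adjusted p of 0.877. In 20 members, among them Rplp1, Rps18, Rps26 and Rps9, the NAT libraries lay below all of the other 6, as in 1.58% of all genes. Rps26 held 1314, 1339 and 1321 TPM with NAT, 1376, 1388 and 1449 with P7C3-A20, and 1427, 1458 and 1414 TPM with DMSO.

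**Figure D5:**
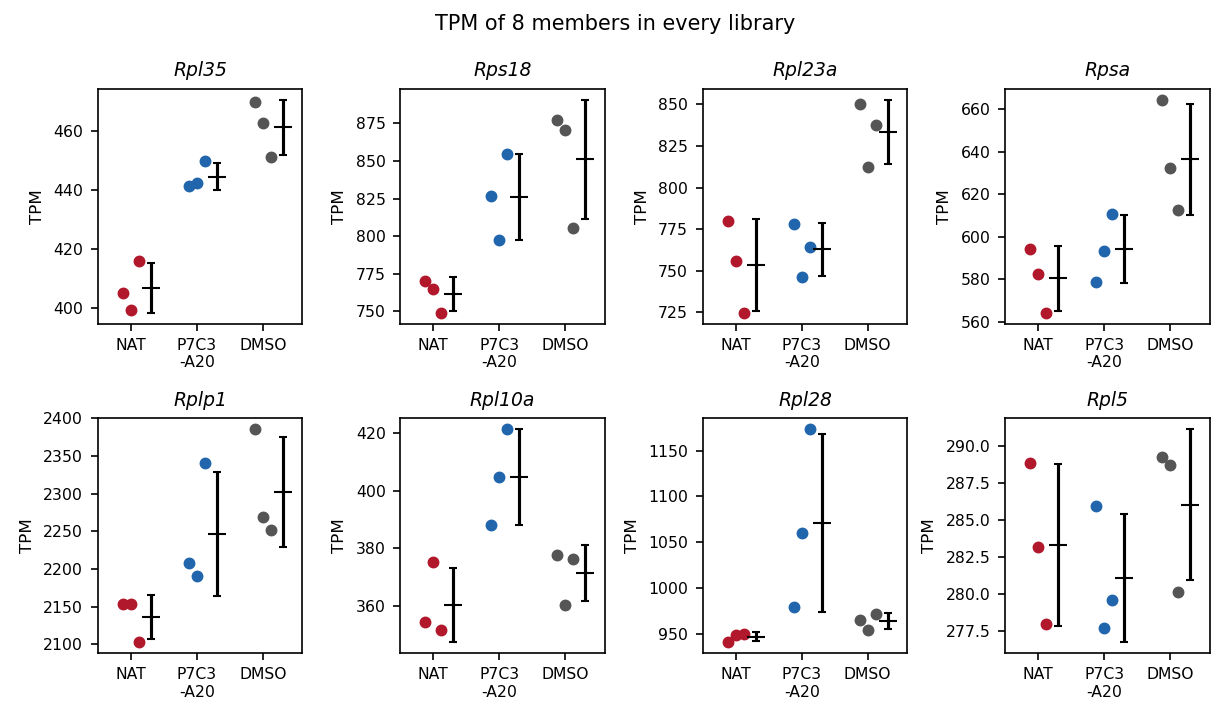
TPM in each library for 8 ribosomal protein genes named in the text, by group (NAT, P7C3-A20, DMSO), with the mean and SD of 3 libraries; the axes do not start at 0. The NAT libraries of Rpl35 and Rps18 lie below all others, Rpl23a is low with both compounds, and Rpl28 is spread upward with P7C3-A20.

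The genes left out by symbol encode ribosomal proteins or close relatives. Of 14 listed symbols 11 were in the table and 8 were tested, with 0 called in any comparison. Gnb2l1, an older symbol of Rack1, a scaffold on the small subunit, held 978, 965 and 949 TPM with NAT, 995, 995 and 1036 with P7C3-A20, and 1071, 1037 and 996 TPM with DMSO. NAT libraries lay below DMSO without overlap, at -0.10 ± 0.03 (SE) and a limma adjusted p of 0.317. Fau, a ubiquitin-like fusion to a small-subunit protein, held 329.9, 339.5 and 336 TPM with NAT, 362, 371 and 398 with P7C3-A20, and 359, 354 and 364 TPM with DMSO. It was lowest with NAT against either group, at -0.10 ± 0.04 against DMSO and -0.17 ± 0.04 against P7C3-A20 (SE), with limma adjusted p of 0.347 and 0.168.

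Rps3a1 averaged 1037 ± 25.6 TPM with NAT, 1073 ± 27.2 TPM with P7C3-A20 and 1094 ± 41.6 TPM with DMSO (SD, n = 3 each). The paralogs Rpl7l1, Rpl22l1 and Rpl36al had positive fold changes in NAT against DMSO, from 0.01 to 0.02, while Rps27l was at -0.04. Rps27l stood at 518 TPM with NAT, 491 TPM with P7C3-A20 and 532 TPM with DMSO, on average. Rpl3l, the muscle form, stayed below 1 TPM, Rpl39l reached 0.27 TPM in 1 library, and Rpl10l was listed at 0.

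Other genes of the pathway were read from fixed lists, in which 0 genes were called in any of the 3 comparisons. Among 20 other TOP mRNAs, for translation factors and related proteins, 14 were negative with NAT against DMSO, at a median of -0.03. The lowest p were those of the initiation factor subunit Eif3h (-0.11 ± 0.04), Tpt1 (-0.09 ± 0.04) and the elongation factor subunit Eef1b2 (-0.09 ± 0.04, SE). With P7C3-A20 against DMSO 14 were negative as well, at a median of -0.04, and NAT against P7C3-A20 had a median of -0.0048.

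The 38 ribosome biogenesis genes had medians of 0.0050 in NAT against DMSO, 0.02 in P7C3-A20 against DMSO and -0.02 in NAT against P7C3-A20. Rrp9, a protein of small nucleolar particles, was at 0.22 ± 0.06 (SE; limma adjusted p 0.166) in P7C3-A20 against DMSO. Eif6, which keeps the large subunit from joining too early, was at -0.18 ± 0.04 (SE; limma adjusted p 0.168) in NAT against P7C3-A20, and Fbl, which methylates ribosomal RNA, at -0.28 ± 0.09 (SE; limma adjusted p 0.208).

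Genes of RNA polymerases I and III, which make ribosomal RNA, numbered 32, at medians of -0.0073, 0.0099 and -0.02 in the same order of comparisons. Taf1c, an initiation factor of polymerase I, was at 0.37 ± 0.08 (SE; limma adjusted p 0.139) in P7C3-A20 against DMSO. Gtf3a, which starts transcription of the smallest ribosomal RNA, was at 0.27 ± 0.07 (SE; limma adjusted p 0.256) in NAT against DMSO.

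The 23 tested genes that control translation through mTOR had medians of 0.03, 0.04 and -0.00076. In NAT against DMSO Myc, a transcription factor that drives ribosome production, was at -0.18 ± 0.05 (SE; limma adjusted p 0.260) and Mtor, the kinase itself, at 0.12 ± 0.04 (SE; limma adjusted p 0.317). Larp4 was at -0.20 ± 0.05 (SE; limma adjusted p 0.161) in P7C3-A20 against DMSO.

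The 16 tested chaperones and import receptors of ribosomal proteins had medians of 0.02, -0.03 and 0.05. The import receptors Kpnb1 and Tnpo1 were at 0.14 ± 0.03 (SE; limma adjusted p 0.210) and 0.11 ± 0.04 (SE; limma adjusted p 0.344) in NAT against DMSO. In NAT against P7C3-A20 they were at 0.13 ± 0.03 and 0.22 ± 0.04 (SE), with limma adjusted p of 0.179 and 0.168. Differences between the lists were not tested.

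The row Rn45s, named for the precursor of ribosomal RNA, held 13976, 10044 and 9583 TPM with NAT, 14304, 7947 and 14996 with P7C3-A20, and 21845, 21699 and 17228 TPM with DMSO. All libraries of both compounds lay below all DMSO libraries. The part of mature ribosomal RNA left in the libraries in these values was not tested, so they are not read as precursor levels. Because TPM shares add to a fixed total, the member sums were also taken without Rn45s and Malat1, where the total with NAT was 93.4% of the total with DMSO.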

How the data were processed

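RNA of 9 samples was sequenced after library preparation with an Illumina TruSeq RNA kit, which the labels' protocols do not say marks the strand, so antisense and overlapping genes cannot be separated. The authors deposited TPM, which sum to the same total in each library, for 23420 gene symbols. Bowtie 0.12.2 and the builds mm8 and mm9 appear in the submitters' processing notes with no role stated. The counter, the annotation and the treatment of multiply matching reads were not given in the sources used here. Whole reads were recovered from the TPM steps for 19302 of 19302 genes with a value (tolerance 0.001 reads), and these gave depth and the voom alternative.

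Groups were compared with limma 3.58.1 (R 4.3.3, trend, two-sided) on log2(TPM + 1) over 13839 genes with at least 1 TPM in at least 3 libraries. All 9 libraries were in 1 fit of 6 residual degrees of freedom. The functions were also run on simulated data whose planted changes were larger than most of the members' changes. That run cannot show whether changes as small as these are detected. P-values were adjusted by the Benjamini-Hochberg method over all genes and called below 0.05. The pseudocount of 1 lowers the fold changes of low genes. Errors of fold changes are standard errors.

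Members and lists were chosen with earlier results of these data known. Named genes were, per comparison, called members and the 5 highest and 5 lowest fold changes; the 5 most and 5 least abundant of each subunit; the stalk genes and Rpsa; every paralog or fusion; and up to 3 genes of lowest p per list. A few others are named after their values were seen, as members without overlap. The alternatives changed the pseudocount, filter, scaling, block, libraries fitted, and the GC and length trend, took voom on reads, or left out each library. Sequences come from RefSeq (GRCm38.p6), and GC content, length and shared 50-base stretches from a GRCm38 annotation matched for 98.4% of symbols and 76 of 76 members. Some genes the rule takes are not reported here. No interval is given for single counts. Python 3.11.15, numpy 2.4.6, pandas 2.3.3, scipy 1.17.1 and matplotlib 3.10.9 were used.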

Additional observations from a re-analysis of the deposited data

Results flagged for a closer look

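Rpl28 was marked because every NAT library lay below, and every P7C3-A20 library above, all DMSO libraries. The NAT side was slight, at -0.03 ± 0.05 (SE) against DMSO with a limma adjusted p of 0.877. The log2 fold change of NAT against P7C3-A20 was -0.17 ± 0.05 (SE), with a limma adjusted p of 0.206, which does not pass 0.05. Voom gave an adjusted p of 0.0397 at -0.19. The limma value was -0.11 without the third P7C3-A20 library.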

How the results depend on the processing

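No member was called under any alternative except voom, which called 6 in NAT against P7C3-A20. The median fold change stayed negative in NAT against DMSO, from -0.11 (voom) to -0.07, and in NAT against P7C3-A20, from -0.10 to -0.04. With the replicate block 0 members were called in each comparison. The replicate numbers showed no visible pairing of the samples. The 9 correlations of same-numbered libraries ran from -0.06 to 0.07, and those of other libraries from -0.09 to 0.10. Such low values cannot show that cultures or preparations were unpaired. Members without overlap in P7C3-A20 against DMSO numbered 10 in all and 11 to 26 with 1 library left out; the share of all genes without overlap was 20.6% with all libraries and 36.0% without DMSO replicate 3, which gave 26. Of 445 alternative values for 30 named fold changes, 421 kept direction and call, 4 passed only by voom and 20 turned sign, 19 of these for genes within 0.05 of 0 to begin with; the cause was not tested. For NAT against DMSO, GC and length removal gave 0.022 for Rps27a and 0.016 for Rpl10, and Rpl34 was -0.013 after quantile scaling and -0.018 by voom. For NAT against P7C3-A20, GC and length removal gave -0.050 for Rpl5 and -0.023 for Rps15a, and voom -0.0041 for Rpl5 and -0.0062 for Rpl3. With 1 library left out, NAT against DMSO ranged from -0.048 to 0.0039 for Rps27a, -0.15 to 0.22 for Rpl30, -0.11 to 0.23 for Rpl34, -0.028 to 8.9e-05 for Rpl5 and -0.052 to 0.010 for Rpl10. P7C3-A20 against DMSO ranged from -0.042 to 0.30 for Rpl34. NAT against P7C3-A20 ranged from -0.019 to 0.037 for Rpl3 and from -0.0026 to 0.025 for Rpl5. Reads limit Rpl30, Rpl34 and Rps27.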
